A study of Homo sapiens with 6 samples.

Results

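The Polycomb and DNA methylation enzymes are described here as 10 genes, EZH2, EED, SUZ12, DNMT1, DNMT3A, DNMT3B, TET1, TET2, TET3 and PHF6, across the 3 groups of an array study. The members were found through the RefSeq accession that the scanner files give for each probe. A probe was matched for 8 of the 10 genes, out of 19722 genes with a matched probe on the array. These 8 genes had 14 probes of 57176, and all 14 were bright enough to be tested. No probe could be matched to EED or TET3 in the RefSeq records used, so they were not analysed here. This does not show that the array lacks probes for them. Expression was measured in RPMI-8402, a human cell line established from T-cell acute lymphoblastic leukaemia, after lentiviral transduction with a control hairpin vector, with a short hairpin RNA against GATA3 (shGATA3) or with a hairpin against TCF1 (shTCF1), the protein that TCF7 encodes. All 6 samples carried a vector with EGFP, EGFP+ cells were sorted 48 h after transduction, and 100 ng of total RNA was labelled as cRNA. Each group had 2 arrays, which the study describes as independent experiments, although the labels do not say that they came from separate cultures. The p-values measure the spread between these arrays. All arrays are of 1 cell line, and bulk RNA cannot tell fewer expressing cells from less RNA per cell.

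Polycomb repressive complex 2 (PRC2) places methyl groups on a lysine of histone H3 (H3K27), a mark of silenced genes. EZH2 is its catalytic subunit, while EED and SUZ12 are the core subunits that the enzyme needs to work. DNMT3A and DNMT3B place new methyl groups on cytosines of CpG sites, DNMT1 copies the pattern to the new strand at replication, and TET1, TET2 and TET3 oxidise 5-methylcytosine as a step towards its removal. PHF6 is a PHD finger protein of the nucleus and nucleolus. In T-cell acute lymphoblastic leukaemia, EZH2, SUZ12, EED, DNMT3A and PHF6 are known as recurrent targets of loss-of-function mutation.

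The start regions of the members were read from RefSeq, as windows from 250 bases before to 50 bases after a start, in the build GRCh38.p14. Windows were found for 9 of the 10 members, 19 windows in all, several of which overlap. Because each hairpin targets a transcription factor with a known preferred motif, the windows were searched on both strands for the TCF letters CTTTGAA or CTTTGAT or CTTTGTA or CTTTGTT and for the GATA letters AGATAA or AGATAG or TGATAA or TGATAG. The TCF letters were in 3 of the 19 windows, beside 13.8% of the 35114 windows of all genes, and the GATA letters in 1, the window of EED, beside 25.0%. The 3 windows with TCF letters belonged to SUZ12, DNMT3B and TET2 and are shown for that reason, with the match in capitals, as it reads on the strand of the gene. No match overlapped another one, and a match of letters is a description, not a binding site.
SUZ12, chr17:31936757-31937056, plus strand: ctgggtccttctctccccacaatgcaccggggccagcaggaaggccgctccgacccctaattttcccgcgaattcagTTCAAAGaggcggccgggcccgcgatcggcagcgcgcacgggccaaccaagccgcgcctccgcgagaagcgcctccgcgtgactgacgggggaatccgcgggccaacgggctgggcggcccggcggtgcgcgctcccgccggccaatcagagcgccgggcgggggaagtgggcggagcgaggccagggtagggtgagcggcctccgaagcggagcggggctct
DNMT3B, chr20:32779602-32779901, plus strand: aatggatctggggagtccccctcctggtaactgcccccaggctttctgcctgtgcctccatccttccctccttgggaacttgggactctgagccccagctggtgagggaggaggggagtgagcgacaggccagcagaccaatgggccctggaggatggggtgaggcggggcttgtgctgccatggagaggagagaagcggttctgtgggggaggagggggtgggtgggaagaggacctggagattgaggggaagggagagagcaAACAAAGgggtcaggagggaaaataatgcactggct
TET2, first of 2 windows, chr4:105145625-105145924, plus strand: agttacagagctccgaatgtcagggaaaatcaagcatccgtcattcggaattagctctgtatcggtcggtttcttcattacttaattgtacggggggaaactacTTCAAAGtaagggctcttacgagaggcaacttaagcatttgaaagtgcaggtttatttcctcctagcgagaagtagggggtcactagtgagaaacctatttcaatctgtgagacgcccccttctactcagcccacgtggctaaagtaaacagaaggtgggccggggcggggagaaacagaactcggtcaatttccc
The windows also differed in CpG, the substrate of the DNA methylation enzymes. The 19 windows held between 3 and 46 CpG sites, and 14 of them held more than 14, the median over all windows. The only DNMT3B window found had the fewest, 3, while the SUZ12 window had 40 and the EZH2 windows had 46 and 45. Whether a window lies at the main start of its gene was not tested. The 3 TET1 windows had 10, 6 and 11 and held neither set of letters.

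On the arrays labelled shGATA3, GATA3 itself was not called lower. Its log2 difference from control was -0.05 (SE 0.10, adjusted p = 0.795), and 0.0034 under median scaling, so this group is named by its label throughout. Against shTCF1 it was -0.33 (adjusted p = 0.136), without overlap between the groups but not past the threshold. The shTCF1 arrays themselves lay above control for GATA3, by 0.28 (adjusted p = 0.122), also without overlap and not called. In shTCF1, 1 TCF7 probe fell by 1.31 (adjusted p = 0.00393) and the other fell by 1.48 (adjusted p = 0.00462) on the log2 scale. Of the genes listed as markers of a T-lineage leukaemia line, 10 of 11 were well above background on all 6 arrays. The exception was LMO2, which the study counts among stem cell genes and which was on none. Of the markers of other cells, 2 of 5 B-cell, 3 of 4 myeloid, 2 of 6 NK-cell and 1 of 2 erythroid genes with a probe were above background on all arrays, and CD22, CSF1R, HBB, KLRD1, KLRF1 and FCGR3A on none. Some markers moved with the groups. NCAM1, an NK-cell marker, read 7.63 and 7.47 in control, 9.03 and 8.95 with shGATA3 and 6.67 and 6.84 with shTCF1, and CD2, a T-lineage marker, read 11.89 and 11.90, 11.41 and 11.45, and 9.69 and 9.73 in that order. Not all markers of these lists followed them. NKG7, an NK-cell marker, read 10.86 and 10.90, 10.88 and 10.69, and 10.77 and 10.93 in that order. PTCRA, a T-lineage marker, read 12.22 and 12.23, 12.81 and 12.83, and 12.26 and 12.59. LMO1, of the same list, read 14.17 and 14.17, 14.99 and 14.96, and 14.23 and 14.37. The part of such marker differences in the members' values was not tested. The share of all probes well above background lay between 51.0% and 56.2% per array. The 6 arrays were on 1 slide, with the control arrays in its second row and all 4 hairpin arrays in its first. The 75th percentile of intensity was 1.59 times as high in control as in shGATA3 and 1.62 times as high as in shTCF1. Slide row, array brightness and the control group cannot be told apart. The contrast of shGATA3 with shTCF1 lies within 1 row, with shTCF1 in columns 1 and 2 and shGATA3 in columns 3 and 4. Slide column and hairpin cannot be told apart there.

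Values are log2 intensities after variance stabilizing normalization (VSN), which corrects every array by an offset of its own and a scale, and differences are log2 differences from limma, called at an adjusted p below 0.05 over all 31131 tested probes. With each gene represented by its probe with the highest mean, 0 of 8 members were called on the arrays labelled shGATA3 against control, where 6.84% of all tested probes were called, and 0 of 8 in shTCF1 against control, where 16.9% were called. In shGATA3 against shTCF1, 0 of 8 were called, beside 6.18% of all probes. Here and below, shares of all probes cover every tested probe, of which 18541 had a gene symbol. Counts of genes use 1 probe per gene, so the sets are not alike. The median difference of the 8 genes was -0.08, 0.001 and -0.19 in these contrasts, while that of all probes was -0.011, -0.020 and -0.004. Over all 14 probes, 1 was called lower on the arrays labelled shGATA3 (a TET1 probe) and 2 were called lower in shTCF1 (a TET1 and a DNMT3A probe), against 3.96% and 9.73% of all probes called lower. In the direct contrast limma called none of the 14. At an unadjusted p below 0.05 stood 1, 2 and 3 of the 8 genes, and 2, 4 and 5 of the 14 probes, in the 3 contrasts. Of all 31131 tested probes, 8256, 10908 and 7296 stood below it. The 4 arrays of a contrast did not overlap between the groups for 6 of the 14 probes on the arrays labelled shGATA3, 9 in shTCF1 and 9 in the direct contrast, where 60.2%, 66.9% and 52.0% of all probes did not overlap.

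**Figure D1:**
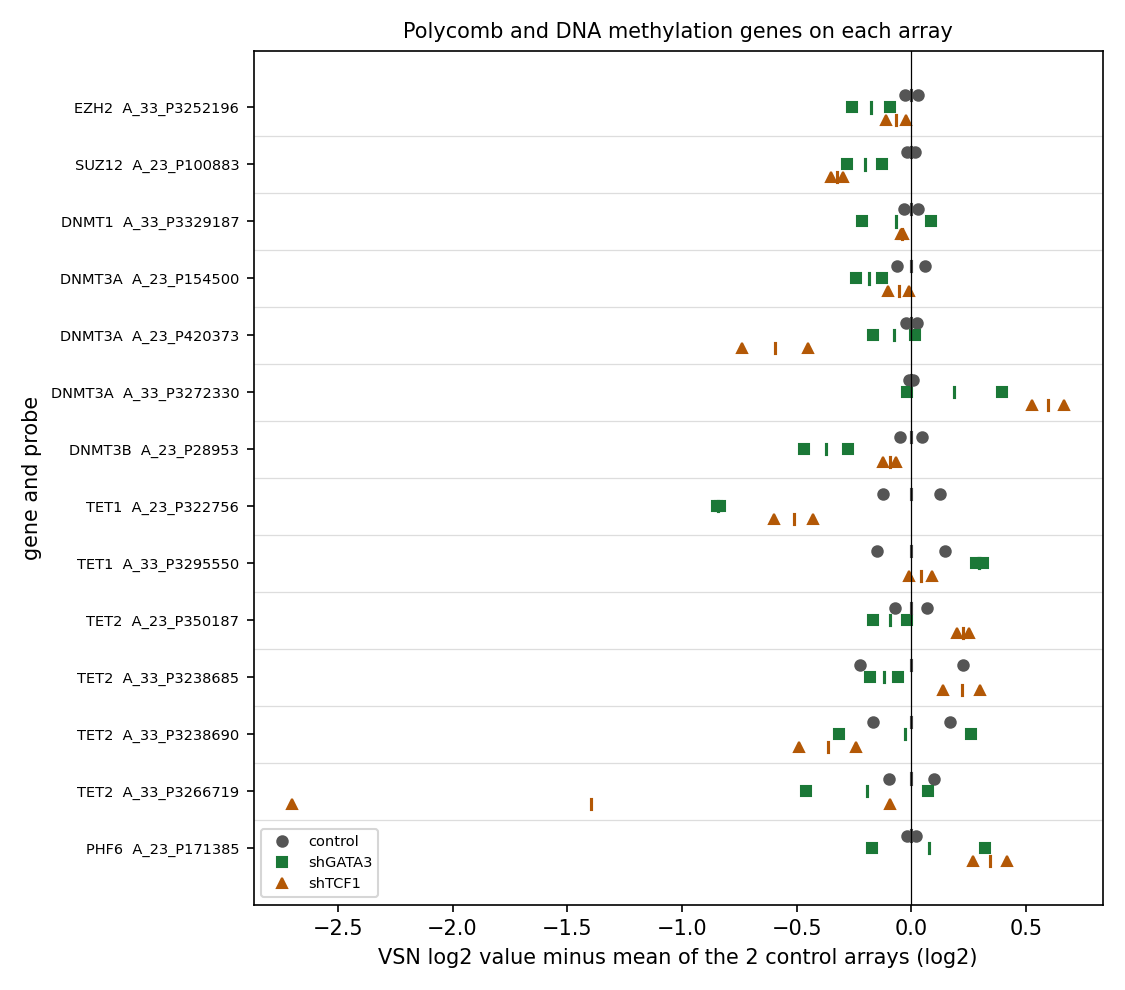
VSN log2 value of each of the 14 member probes on each array, as the difference from the mean of the 2 control arrays (x axis, log2), with the probes on the y axis; points are arrays and short bars are group means. Most points lie within 0.5 of the control mean, while TET1 A_23_P322756 is lower on all 4 hairpin arrays and 1 shTCF1 array is far lower for TET2 A_33_P3266719.

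Of the PRC2 core, EZH2 had 1 probe. It read 12.06 and 12.00 in control, 11.93 and 11.77 under the shGATA3 label, and 11.92 and 12.00 in shTCF1. The arrays labelled shGATA3 lay below both controls, while the shTCF1 arrays overlapped them. Its difference was -0.18 (95% interval -0.44 to 0.09, adjusted p = 0.355) on the arrays labelled shGATA3 and -0.07 (-0.33 to 0.20, adjusted p = 0.702) in shTCF1, so neither passed the test. For this probe, a difference of more than 0.44 down or 0.20 up on the log2 scale lay outside both intervals. They hold the spread between arrays only, so they set no bound on EZH2 mRNA itself.

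SUZ12, the subunit that holds the PRC2 core together, was measured by 1 probe printed 5 times per array, with a coefficient of variation of its spots between 3.41% and 5.31%. It read 12.63 and 12.59 in control, 12.49 and 12.33 under the shGATA3 label, and 12.26 and 12.31 in shTCF1. All 4 hairpin arrays lay below both controls, with the shTCF1 arrays lowest. The difference was -0.20 (-0.46 to 0.05, adjusted p = 0.275) on the arrays labelled shGATA3 and -0.32 (-0.58 to -0.07, adjusted p = 0.0837) in shTCF1. Neither passed the test, and between the hairpins the difference was 0.12 (-0.13 to 0.38, adjusted p = 0.533). Of 5 other scalings of the scanner values, 1 called SUZ12 lower in shTCF1, normexp background correction with quantile normalization (-0.33, adjusted p = 0.0246).

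Among the methyltransferases, DNMT1, the maintenance enzyme, read 11.97 and 11.91 in control, 12.02 and 11.72 under the shGATA3 label, and 11.89 and 11.90 in shTCF1. The shTCF1 arrays lay just under the controls, and the arrays labelled shGATA3 lay on either side of them. Its differences were -0.07 (-0.38 to 0.25, adjusted p = 0.774) and -0.04 (-0.35 to 0.28, adjusted p = 0.849). The sign of both turned to positive under normexp (0.05 and 0.12), and that of the second under 75th percentile and median scaling too.

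DNMT3B, a de novo methyltransferase, read 13.08 and 13.17 in control, 12.85 and 12.65 under the shGATA3 label, and 13.06 and 13.00 in shTCF1. The arrays labelled shGATA3 were the lowest, below both other groups. The difference from control was -0.37 (-0.65 to -0.10), a 1.29-fold lower value, with an adjusted p of 0.107, and of the alternatives run it was called only when the variance was fitted with an intensity trend (adjusted p = 0.0364). In shTCF1 it was -0.09 (-0.37 to 0.18, adjusted p = 0.584). The direct contrast gave -0.28 (-0.55 to -0.001, adjusted p = 0.212).

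DNMT3A, the other de novo enzyme, had 3 probes that disagreed in direction. Probe A_33_P3272330 read 11.31 and 11.32 in control, 11.71 and 11.30 under the shGATA3 label, and 11.98 and 11.84 in shTCF1. The shTCF1 arrays were above all others, while the arrays labelled shGATA3 differed among themselves. Its difference in shTCF1 was 0.60 (0.21 to 0.98, adjusted p = 0.0516), 1.51-fold higher and just short of the threshold. It was called under 3 of 5 other scalings, and also without either array labelled shGATA3 (adjusted p = 0.0306).

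Probe A_23_P420373 of DNMT3A, designed on another RefSeq transcript record of the gene, moved the other way in shTCF1. It read 6.30 and 6.35 in control, 6.16 and 6.34 under the shGATA3 label, and 5.59 and 5.87 in shTCF1. Both shTCF1 arrays lay below the other 4. The difference of -0.59 (-0.93 to -0.26, adjusted p = 0.0367) was called, a 1.51-fold lower value. It was called under 1 of 5 other scalings, and it was lost with no filter on dim probes (adjusted p = 0.0892), without control replicate 1 or 2 (adjusted p = 0.136 and 0.144) and without shTCF1 replicate 1 or 2 (0.122 and 0.0521). The direct contrast gave 0.52 (0.19 to 0.85, adjusted p = 0.0868). This probe was dim, with intensities before normalization of 94.9 and 107.4 in control and 39.3 and 45 in shTCF1. Probe A_33_P3272330 had 3233 and 3584 in control and 3595.3 and 3004.7 in shTCF1.

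The third DNMT3A probe, A_23_P154500, names the same transcript record as A_33_P3272330. It read 11.54 and 11.42 in control, 11.35 and 11.24 under the shGATA3 label, and 11.38 and 11.47 in shTCF1. Its difference in shTCF1 was -0.06 (-0.32 to 0.21, adjusted p = 0.743), while the 0.60 of the other probe of this record lay outside that interval. Under the shGATA3 label the 3 probes gave -0.18, -0.08 and 0.19, and none passed the test. The arrays therefore gave no single direction for DNMT3A.

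**Figure D2:**
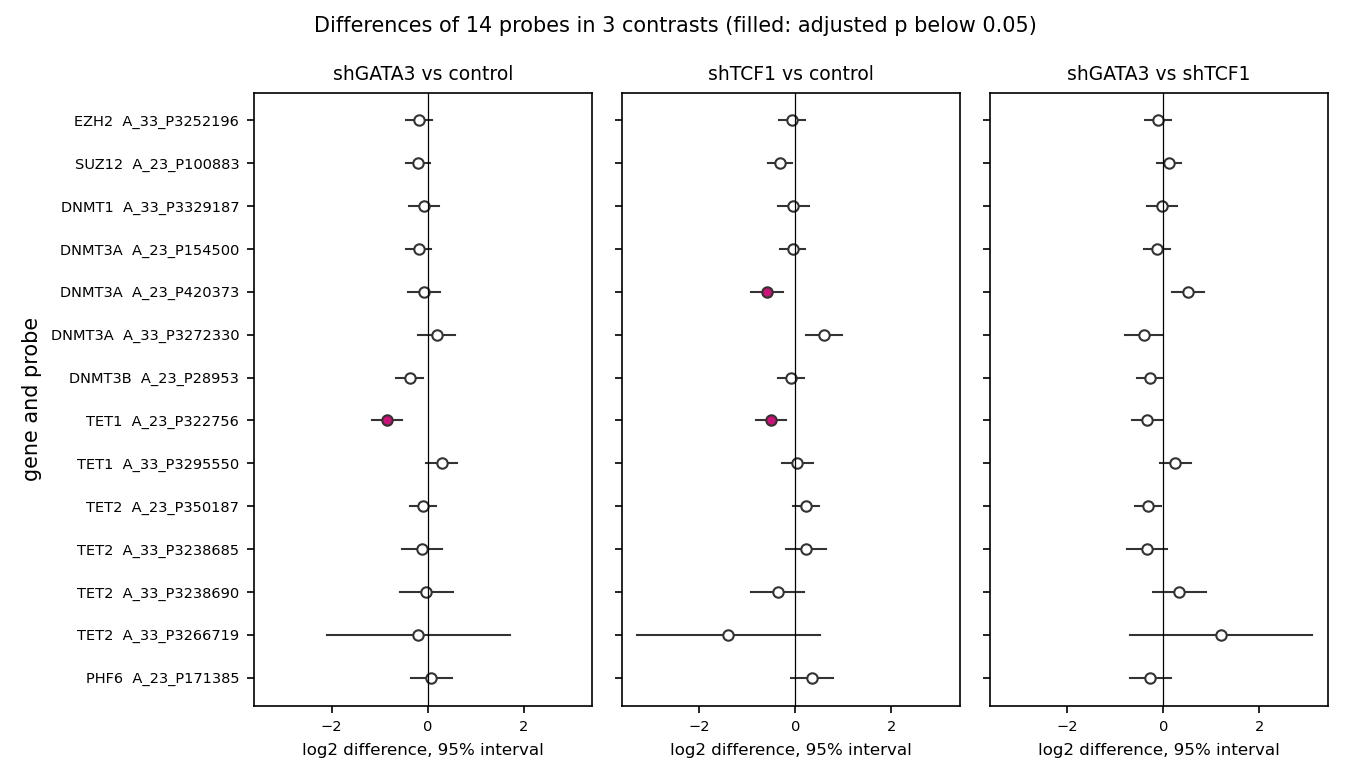
Log2 difference (x axis, log2) of each of the 14 member probes (y axis) in each contrast, 1 panel per contrast on a shared scale, with its 95% interval from limma; filled points passed an adjusted p below 0.05. The 3 filled points are TET1 A_23_P322756 in both contrasts with control and DNMT3A A_23_P420373 in shTCF1, and the widest intervals are those of TET2 A_33_P3266719.

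Of the TET dioxygenases, TET1 had 2 probes for the same transcript record, and they parted. Probe A_23_P322756 read 7.41 and 7.65 in control, 6.68 and 6.70 under the shGATA3 label, and 6.93 and 7.10 in shTCF1. All 4 hairpin arrays lay below both controls, and the arrays labelled shGATA3 were the lowest. The probe fell by 0.84 (-1.15 to -0.53, adjusted p = 0.0219) on the arrays labelled shGATA3, a 1.79-fold lower value. It fell by 0.51 (-0.83 to -0.20, adjusted p = 0.0451) in shTCF1, 1.43-fold lower. The direct contrast, -0.33 (-0.64 to -0.02, adjusted p = 0.196), did not pass. This was the dimmer TET1 probe, with intensities before normalization of 211 and 275.3 in control, where the other probe had 3362.9 and 4530.7.

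The first of these calls held under all 5 other scalings of the scanner values, from -0.84 to -0.51, and ended with no filter on dim probes (adjusted p = 0.0689), as did the second (adjusted p = 0.0987). The first was also lost without control replicate 1 (adjusted p = 0.0618), control replicate 2 (0.0925), shGATA3 replicate 1 (0.0721) or shGATA3 replicate 2 (0.0930), with differences from -0.96 to -0.72. The second was called under 0 of 5 other scalings, and it was lost without each of the 6 arrays in turn, with adjusted p from 0.0656 to 0.203.

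Probe A_33_P3295550 of TET1 read 11.36 and 11.66 in control, 11.79 and 11.82 under the shGATA3 label, and 11.60 and 11.50 in shTCF1. Here the arrays labelled shGATA3 were above both controls and the shTCF1 arrays lay between them. Its differences were 0.30 (-0.02 to 0.62, adjusted p = 0.214) and 0.04 (-0.28 to 0.36, adjusted p = 0.843). The -0.84 of the other TET1 probe lay outside the first interval and its -0.51 outside the second. Which of the probes follows TET1 mRNA was not tested.

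TET2 had 4 probes, none of which was called. Probe A_23_P350187, which represents the gene, read 7.34 and 7.20 in control, 7.11 and 7.26 under the shGATA3 label, and 7.47 and 7.52 in shTCF1. The shTCF1 arrays were the highest of the 6. The difference in shTCF1 was 0.22 (-0.05 to 0.50, adjusted p = 0.207), and it was called under 1 of 5 other scalings, normexp (0.30, adjusted p = 0.0371). Under the shGATA3 label it was -0.09 (-0.36 to 0.18, adjusted p = 0.634), and in the direct contrast -0.32 (-0.59 to -0.04, adjusted p = 0.162).

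The other TET2 probes had wider intervals. Probe A_33_P3238685 read 6.57 and 7.02 in control, 6.73 and 6.61 under the shGATA3 label, and 7.09 and 6.93 in shTCF1. Probe A_33_P3238690 read 5.64 and 5.97, 5.49 and 6.07, and 5.57 and 5.32 in the same order. In shTCF1 these probes differed from control in opposite directions, by 0.22 (-0.20 to 0.64) and by -0.36 (-0.92 to 0.19). Probe A_33_P3266719, for another transcript record, read 5.62 and 5.82 in control, 5.26 and 5.79 under the shGATA3 label, and 5.63 and 3.02 in shTCF1. On the last of these arrays it was not well above background. That array alone gave the difference of -1.40 (-3.30 to 0.51, adjusted p = 0.252), which was -0.09 without it and -2.70 without shTCF1 replicate 1.

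PHF6 had 1 probe, which read 9.69 and 9.65 in control, 9.99 and 9.50 under the shGATA3 label, and 10.09 and 9.94 in shTCF1. Both shTCF1 arrays were above both controls, and the arrays labelled shGATA3 lay on either side. The difference was 0.34 (-0.09 to 0.77, adjusted p = 0.221) in shTCF1 and 0.08 (-0.35 to 0.51, adjusted p = 0.812) on the arrays labelled shGATA3. Without shGATA3 replicate 1 the latter was -0.17. Under normexp the value in shTCF1 was called (0.46, adjusted p = 0.0401), as under 1 of 5 other scalings in all.

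The genes that work with the members were taken as 6 lists of 95 genes, of which 90 had a tested probe and 14 were called in at least 1 contrast. On the arrays labelled shGATA3 4 of the 90 were called against control (4.44%, beside 6.84% of all probes), in shTCF1 11 (12.2%, beside 16.9%) and in the direct contrast 7 (7.78%, beside 6.18%). Of the PRC2 partners, which bind or replace parts of the core, 10 of 11 were tested. Under the shGATA3 label limma called 0 (median -0.0003), with 1 at an unadjusted p below 0.05, beside 8256 of all 31131 probes. In shTCF1 1 was higher, 1 was lower and 8 were not called (median -0.05), beside 16.9% of all probes called. EZH1, the other catalytic subunit of PRC2, read 9.44 and 9.34 in control, 10.07 and 9.77 under the shGATA3 label, and 10.01 and 10.13 in shTCF1. It rose by 0.68 (SE 0.13, adjusted p = 0.0257) in shTCF1. Its difference under the shGATA3 label was 0.53 (adjusted p = 0.0738), also without overlap with control. EPOP, which links PRC2 to elongin BC, read 9.78 and 10.05 in control, 10.51 and 10.10 under the shGATA3 label, and 8.76 and 8.97 in shTCF1. It fell by 1.05 (SE 0.18, adjusted p = 0.0184) in shTCF1 and was 1.44 higher on the arrays labelled shGATA3 than in shTCF1 (adjusted p = 0.0111).

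Of 26 genes of PRC1, the complex that ubiquitinates histone H2A, and of the deubiquitinase that opposes it, all 26 were tested. Under the shGATA3 label 1 was higher and 0 lower (median 0.04), beside 6.84% of all probes called in either direction. In shTCF1 0 were higher and 2 lower (median -0.17), beside 16.9% of all probes. PCGF5, a subunit of a PRC1 variant, read 10.49 and 10.51 in control, 11.22 and 11.08 under the shGATA3 label, and 10.33 and 10.36 in shTCF1. It rose by 0.65 (adjusted p = 0.0240) on the arrays labelled shGATA3. RYBP, the subunit that marks PRC1 variants without a CBX protein, fell by 0.63 (adjusted p = 0.0228) in shTCF1, from 8.69 and 8.75 to 8.20 and 7.98. SCML2, a Polycomb-associated protein with MBT domains, fell by 0.57 (adjusted p = 0.0174), from 7.96 and 7.89 to 7.34 and 7.37. Between the hairpins 3 genes were higher on the arrays labelled shGATA3, beside 6.18% of all probes called in either direction. These were PCGF5 by 0.80, SCML2 by 0.68 and PHC3, a polyhomeotic subunit, by 0.61 (adjusted p = 0.0115, 0.0162 and 0.0370). The 4 demethylases and acetyltransferases of the lysine that PRC2 methylates, KDM6A, KDM6B, EP300 and CREBBP, were all tested. In each of the 3 contrasts limma called 0 of them, beside 6.84%, 16.9% and 6.18% of all probes. At an unadjusted p below 0.05 stood 0 as well, beside 8256, 10908 and 7296 of all 31131 probes.

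The list of DNA methylation maintenance, readers and removal had 16 of 19 genes tested. Under the shGATA3 label 1 was higher and 2 were lower (median -0.15), beside 6.84% of all probes called in either direction. In shTCF1 1 was higher and 4 were lower (median -0.23), beside 16.9% of all probes. The largest differences of this list were those of CXXC5, a CXXC zinc finger protein that binds CpG DNA. It read 8.94 and 8.92 in control, 7.05 and 7.12 under the shGATA3 label, and 10.43 and 10.52 in shTCF1. The 3 groups did not overlap and the hairpin groups lay on opposite sides of control. CXXC5 fell by 1.84 (SE 0.10, adjusted p = 0.00169) on the arrays labelled shGATA3, rose by 1.55 (adjusted p = 0.00343) in shTCF1 and differed by -3.39 between the former and the latter (adjusted p = 0.000252). CXXC4, its close relative, which is known to bind TET2 and lower its protein, went the other way. It read 7.21 and 7.31 in control, 7.97 and 7.98 under the shGATA3 label, and 6.73 and 6.74 in shTCF1. Its differences were 0.71 (adjusted p = 0.0169) and -0.52 (adjusted p = 0.0223), and 1.24 between the hairpins (adjusted p = 0.00269). The CXXC5 calls, and the direct contrast of CXXC4, held without each array in turn.

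IDH1, which makes the 2-oxoglutarate that TET enzymes use, read 10.48 and 10.57 in control, 9.92 and 9.95 under the shGATA3 label, and 10.69 and 10.84 in shTCF1. It fell by 0.59 (adjusted p = 0.0334) on the arrays labelled shGATA3 and differed by -0.83 between that group and shTCF1 (adjusted p = 0.0117). The call against control ended under 75th percentile scaling (adjusted p = 0.0515) and median scaling (0.0506). In shTCF1 HELLS, a chromatin remodeller needed for DNA methylation, fell by 0.59 (adjusted p = 0.0168), from 10.69 and 10.62 to 10.09 and 10.03, and its second probe fell by 0.66 (adjusted p = 0.0236). UHRF2, a reader of DNA methylation, fell by 0.72 (adjusted p = 0.0249) by 1 probe, while its other probe gave -0.21 (adjusted p = 0.266). MBD4, a glycosylase that removes thymine mispaired at CpG, fell by 0.45 (adjusted p = 0.0311), and it is named beyond the rule of 4 genes, after its value was seen.

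**Figure D3:**
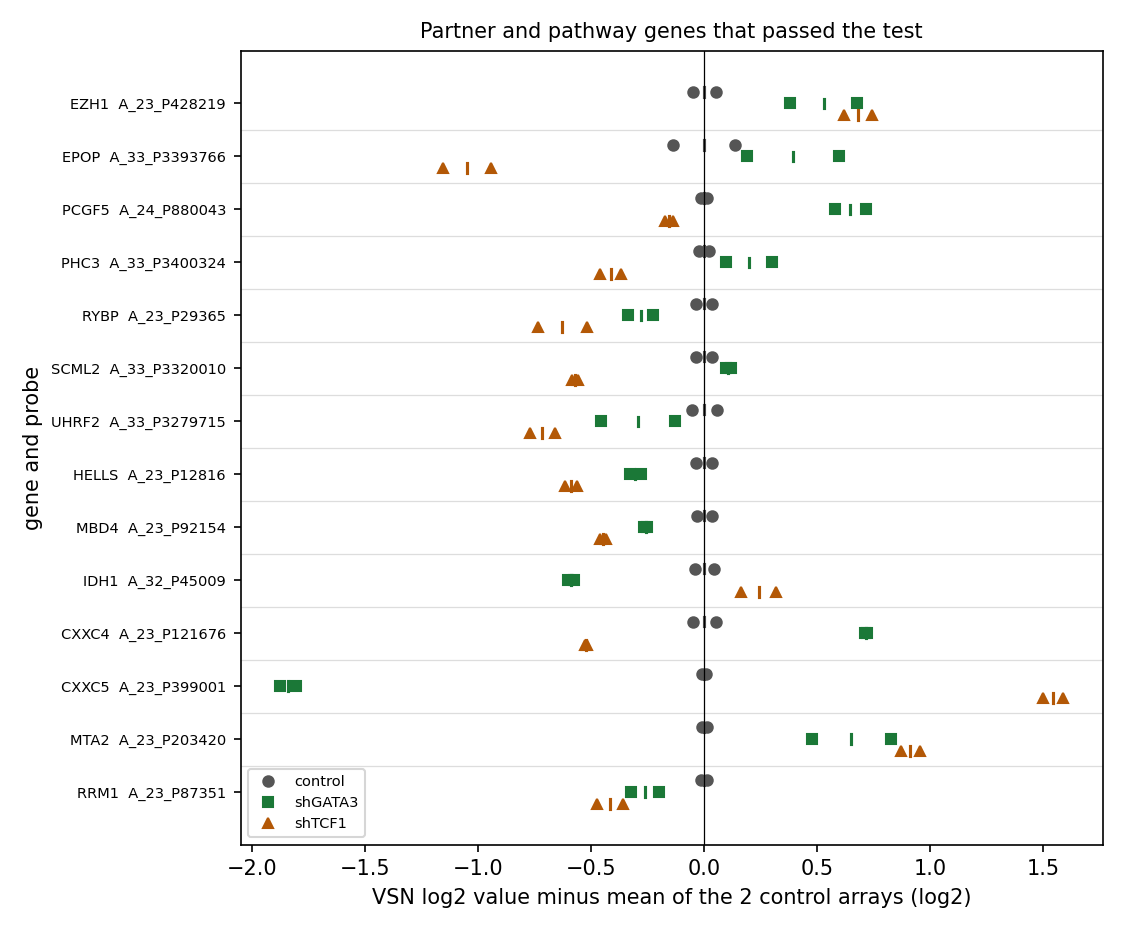
VSN log2 value of the 14 listed partner and pathway genes called in at least 1 contrast, on each array, as the difference from the mean of the 2 control arrays (x axis, log2), with gene and probe on the y axis; points are arrays and short bars are group means. CXXC5 lies farthest from control, lower on the arrays labelled shGATA3 and higher in shTCF1, and CXXC4 lies on the opposite side in each.

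The list of PHF6 partners held genes of the NuRD and PAF1 complexes and UBTF, and 14 of its 15 genes were tested. Under the shGATA3 label limma called 0 (median -0.11), with 3 at an unadjusted p below 0.05, beside 8256 of all 31131 probes. MTA2, a NuRD subunit, was the 1 gene called in shTCF1 (median -0.05), beside 16.9% of all probes. It read 10.46 and 10.44 in control, 11.27 and 10.92 under the shGATA3 label, and 11.32 and 11.40 in shTCF1. It rose by 0.91 (SE 0.14, adjusted p = 0.0140). Genes of S phase and proliferation were followed because DNMT1 and EZH2 are known to be higher in dividing cells. All 20 were tested, with medians of -0.08 on the arrays labelled shGATA3 and -0.12 in shTCF1. RRM1, the large subunit of ribonucleotide reductase, was the 1 gene called, in shTCF1, beside 16.9% of all probes. RRM1 fell by 0.42 (adjusted p = 0.0465) there, a call that ended under 75th percentile scaling (adjusted p = 0.0608) and median scaling (0.0617). In the group labelled shGATA3 limma called 0, with 2 at an unadjusted p below 0.05, beside 8256 of all 31131 probes. The part of proliferation in the members' values was not tested.

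Leaving out an array leaves 1 array in a group, and most calls of these listed genes then ended, with the remaining array assumed to vary like the others. The difference of HELLS ranged from -0.63 to -0.55, MTA2 from 0.87 to 0.95, CXXC4 on the arrays labelled shGATA3 from 0.66 to 0.77, RYBP from -0.74 to -0.52 and EPOP in shTCF1 from -1.19 to -0.91. Of the calls against control, that of CXXC5 held without each array in turn, while the others ended when any array of either compared group was left out, except for RYBP, whose call held without shTCF1 replicate 1. The RRM1 call ended also without either array labelled shGATA3. Of the direct contrasts, CXXC4 and CXXC5 held without each array, EPOP was lost only without shTCF1 replicate 1 (adjusted p = 0.0575), PCGF5 and IDH1 were lost without 3 of the 4 arrays compared, SCML2 without each of the 4 and PHC3 without each of the 6. No listed gene's called difference turned its sign when an array was left out. With no filter on dim probes, which adds probes to the adjustment, the calls of PCGF5 and IDH1 on the arrays labelled shGATA3, of RYBP, EZH1, UHRF2, EPOP, MBD4 and RRM1 in shTCF1 and of EPOP and PHC3 in the direct contrast ended, with adjusted p from 0.0528 to 0.0839.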

How the data were processed

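Intensity values of 6 one-colour Agilent arrays were used, which per the file headers Agilent Feature Extraction 10.7.1.1 had background-corrected without scaling arrays to each other; the submitters' notes name version 9.1. A matrix of log2 values that the authors deposited, made with VSN per their methods, served only as an alternative, for the reasons that follow. Several columns did not follow the array of their name, although by values centred on each probe every column came closest to an array of its own group. The column of control replicate 2 correlated at only 0.754 to 0.760 with any array, while each other column reached at least 0.988 with 1 array. Control spots and outlier spots (71 probes) were left out and spots of a probe averaged. VSN was rewritten in R 4.3.3 (trimming quantile 0.9, 7 iterations, 5 strata) and tested on simulated data. Probes were named by matching accessions to RefSeq symbols (25729 of 57176). Tests ran on the 31131 probes that were well above background in both replicates of any group, in 1 limma 3.58.1 fit of all arrays (lmFit and eBayes, two-sided) after the study's own choice of VSN and limma, with Benjamini-Hochberg adjustment and 3 residual and 2.97 prior degrees of freedom. Intervals are 95% intervals of that fit, and the number of arrays limits the precision. All member probes are named. Of the listed genes, those called were named, by rule at most 4 per list and contrast with the largest difference (MBD4 was added after its value was seen), each by its probe with the highest mean. Members and lists were chosen with earlier results of these data known. Alternatives were other scalings, filters, variance models, a replicate block and leaving out each array. A slide or scan block could not be fitted because 1 slide and 1 scan hold all arrays. All columns of per-sample values were used.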

Additional observations from a re-analysis of the deposited data

Results flagged for a closer look

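The effects of the hairpins differed, by the direct test between them, for 7 of the 90 listed genes tested (7.78%, beside 6.18% of all probes). Values are log2 differences on the arrays labelled shGATA3 against shTCF1, with adjusted p from limma. CXXC5 (-3.39, adjusted p = 0.000252) and CXXC4 (1.24, adjusted p = 0.00269) lay on opposite sides of control under the hairpins. EPOP was 1.44 higher (adjusted p = 0.0111), PCGF5 0.80 higher (adjusted p = 0.0115), SCML2 0.68 higher (adjusted p = 0.0162) and PHC3 0.61 higher (adjusted p = 0.0370). IDH1 was -0.83, lower on the arrays labelled shGATA3 (adjusted p = 0.0117). None of the 14 member probes was in this set. The test found no fall of GATA3 under its own label against control (-0.05, adjusted p = 0.795). Against shTCF1 it was -0.33 (adjusted p = 0.136), where shTCF1 lay 0.28 above control (adjusted p = 0.122).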

How the results depend on the processing

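With 2 arrays per group and 3 residual degrees of freedom, calls rested on the spread pooled over probes, and dim probes such as TET2 A_33_P3266719 were the least precise. The count of member genes called was 0 in each contrast. On the arrays labelled shGATA3 against control it became 1 (DNMT3B) with an intensity trend. In shTCF1 against control it became 1 under 75th percentile scaling, median scaling, the filter for probes well above background on all arrays or only the 4 arrays of the contrast (DNMT3A each time), 2 with an intensity trend (SUZ12 and DNMT3A) and 4 under normexp (also TET2 and PHF6). Leaving out arrays gave 0 to 1 there and 0 to 0 in the other contrasts. The direct contrast gave 0 under each alternative. The replicate numbers did not pair the arrays (correlation of deviations -0.04, -0.01 and 0.05), and with the replicate block the member counts were 0, 0 and 0 and the counts of all probes 1328, 3853 and 1285, against 2130, 5274 and 1925. The blocked fit ended the calls of TET1 A_23_P322756 (adjusted p = 0.0523), RRM1 (0.0790) and MBD4 (0.0575) in shTCF1. It also ended those of IDH1 (0.0540) on the arrays labelled shGATA3 and of PHC3 (0.0706) in the direct contrast. With only the 4 arrays of a contrast the calls of TET1 A_23_P322756 (0.0656) and RRM1 (0.0531) in shTCF1 and of PHC3 (0.0802) in the direct contrast ended.

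Counts of all probes moved by more than 1.5 times under normexp (4282 and 3284 in the first and the direct contrast), with no filter (560, 2272 and 901), with an intensity trend (3910 and 3273), with the replicate block in the first contrast (1328), with only the 4 arrays in the direct contrast (1214) and with the deposited matrix (0, 0 and 0 by limma, with 1814, 2653 and 1642 at an unadjusted p below 0.05). With arrays left out they ranged from 437 to 1454, 865 to 4930 and 701 to 1214, each moving by more than 1.5 times when an array of the compared groups was left out, and in the direct contrast also without either control array. Calls that were higher made up 42.1% and 42.6% of calls against control, but 53.6% and 54.8% under 75th percentile scaling, 54.3% and 56.6% under median scaling and 53.0% and 53.3% under quantile normalization. Over the same alternatives, without the deposited matrix, the PRC2 partners called ranged from 0 to 1, 0 to 6 and 0 to 2, the PRC1 genes from 0 to 2, 0 to 8 and 0 to 6, the DNA methylation list from 1 to 4, 1 to 8 and 2 to 4, the PHF6 partners from 0 to 3, 0 to 2 and 0 to 0, and the S-phase genes from 0 to 2, 0 to 7 and 0 to 0, while the H3K27 enzymes stayed at 0.

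Of 667 log2 differences recomputed under settings that kept all arrays and the scanner values, 607 kept their direction and their side of the threshold, 34 were no longer called, 12 were newly called and 14 turned sign, all of them small. Against control on the arrays labelled shGATA3, TET2 A_33_P3238690 became 0.029 under 75th percentile scaling, 0.031 under median scaling, 0.037 under quantile normalization and 0.0022 under normexp, GATA3 became 0.00047 under 75th percentile scaling and 0.0034 under median scaling, DNMT3A A_23_P420373 became 0.0096 under quantile normalization and 0.055 under normexp, DNMT1 became 0.053 under normexp and TET2 A_23_P350187 became 0.060 under normexp. In shTCF1 DNMT1 became 0.0083 under 75th percentile scaling, 0.017 under median scaling and 0.12 under normexp, and DNMT3A A_23_P154500 became 0.00064 under median scaling. The deposited matrix, whose control replicate 2 column correlated at only 0.754 to 0.760 with any array, turned the sign of 14 differences of 67. On the arrays labelled shGATA3 it gave EZH2 0.97, SUZ12 1.09, DNMT3A A_23_P154500 2.06, DNMT3A A_23_P420373 1.42, TET2 A_33_P3238685 1.26, TET2 A_33_P3238690 0.090 and PHF6 -0.28. In shTCF1 it gave EZH2 1.04, SUZ12 0.94, DNMT3A A_23_P154500 2.13, DNMT3A A_23_P420373 0.74, TET2 A_23_P350187 -0.0096, PHF6 -0.018 and TCF7 A_33_P3250671 1.24. The cause of these changes was not tested.

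With arrays left out, the sign turned for 14 of 402. Ranges on the arrays labelled shGATA3 against control were -0.34 to 0.11 for TET2 A_33_P3238685, -0.32 to 0.26 for TET2 A_33_P3238690, -0.46 to 0.071 for TET2 A_33_P3266719, -0.17 to 0.014 for DNMT3A A_23_P420373, -0.019 to 0.39 for DNMT3A A_33_P3272330, -0.17 to 0.32 for PHF6 and -0.22 to 0.084 for DNMT1. In shTCF1 they were -0.12 to 0.0061 for DNMT3A A_23_P154500, -0.11 to 0.19 for TET1 A_33_P3295550 and -0.0054 to 0.45 for TET2 A_33_P3238685, and in the direct contrast -0.18 to 0.12 for DNMT1 and -0.10 to 2.50 for TET2 A_33_P3266719.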
